A study of Homo sapiens with 4 samples.

Results

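The genes described here were the long intergenic noncoding RNA genes of LNCaP prostate cancer cells, taken as every gene of the counts table whose symbol was LINC followed by a digit. The table held 328 such genes among 17141, and the 135 with a mean over all libraries of at least 1 CPM (counts per 1000000 counts of a library), of 13594 genes at that level, were described. RNA was sequenced from 4 libraries of LNCaP, an established human prostate cancer line that came from a lymph node metastasis and responds to androgen. LNCaP-EV cells (replicates 1 and 2) carried the empty lentiviral vector, and LNCaP-RRM2 cells (replicates 1 and 2) stably overexpressed RRM2, the small subunit of ribonucleotide reductase, which makes deoxyribonucleotides for DNA synthesis. The study's methods give puromycin selection for the stable lines made with the lentiviral RRM2 vector. Whether either cell population was a single clone, and whether replicates were separate cultures, is not stated. The p-values thus measure the spread between these libraries, which may be technical. The rule used only the symbol and the mean over all 4 libraries, but that mean holds the values compared: 9 genes had a LNCaP-EV mean below 1 CPM and 4 a LNCaP-RRM2 mean below it, and each was included through its higher group.

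Long intergenic noncoding RNAs are transcribed by RNA polymerase II outside protein-coding genes, and most are capped, spliced and polyadenylated without encoding a long protein. Some act in the nucleus on neighboring genes or chromatin, others bind proteins or microRNAs, and for many no function is known. Their levels are usually low and specific to a cell type, and several have been described in prostate cells. The LINC symbol is a placeholder: RefSeq has since renamed 23 of the 135 genes, 8 of them as divergent transcripts (symbols ending in -DT) of a protein-coding neighbor, and it lists 3 as protein coding (LINC00672 as LASP1NB, LINC00950 as TMEM8B and LINC00634 as SMIM45). The other 132 are RefSeq long noncoding RNAs.

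Library totals ranged from 26601061 to 32601519 counts, at which 3 counts corresponded to 0.0949 to 0.112 CPM. The replicates of a group differed beyond sampling noise, with a chi-square per degree of freedom of 23.4 in LNCaP-EV and 7.77 in LNCaP-RRM2. RRM2 itself stood at 318.2 and 342.6 CPM in LNCaP-EV and at 9290.8 and 8979.4 CPM in LNCaP-RRM2, so the libraries matched their labels. The luminal prostate markers KLK2, KLK3, TMPRSS2, FOLH1, HOXB13, KRT8 and KRT18 were at 225.6 CPM or more in every library. Of 8 markers of other cell types, 2 (COL1A1 and COL3A1) were analyzed; their summed level was 11.8 and 7.56 CPM in LNCaP-EV and 34.3 and 25.6 CPM in LNCaP-RRM2, and both were called higher. Their part in the LINC results was not tested.

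The promoters of 5 genes are shown first because the results turn on their genes: the LINC gene with the largest rise, the LINC genes with a rise and a fall called in every alternative processing, and a pair of falling genes that start beside an oppositely transcribed neighbor. Each is the RefSeq window on GRCh38.p14 from 250 bases before to 50 bases after the RefSeq gene start, read 5′ to 3′ on the gene's strand, and capitals mark matches to CCAAT (or ATTGG on the other strand) and to AGAACA (or TGTTCT), 1 arm of the palindromic glucocorticoid response element. For LINC00672 the RefSeq start lies inside the span that the table gives the gene.
chr17:38925364-38925663, plus strand, 4 CpG dinucleotides
LINC00672 (LASP1NB): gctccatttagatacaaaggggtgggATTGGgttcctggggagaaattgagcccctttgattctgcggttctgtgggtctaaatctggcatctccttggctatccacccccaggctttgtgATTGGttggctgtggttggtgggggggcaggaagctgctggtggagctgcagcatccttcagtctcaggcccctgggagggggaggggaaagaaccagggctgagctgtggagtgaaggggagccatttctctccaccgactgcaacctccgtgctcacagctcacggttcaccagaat
chr15:92572214-92572513, minus strand, 1 CpG
LINC00930: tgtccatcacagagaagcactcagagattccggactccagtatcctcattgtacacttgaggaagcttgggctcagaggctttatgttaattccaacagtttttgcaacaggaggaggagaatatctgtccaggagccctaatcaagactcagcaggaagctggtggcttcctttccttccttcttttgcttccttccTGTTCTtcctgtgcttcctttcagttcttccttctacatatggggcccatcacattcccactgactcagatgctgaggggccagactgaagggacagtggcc
chr1:159960974-159961273, plus strand, 1 CpG
LINC01133: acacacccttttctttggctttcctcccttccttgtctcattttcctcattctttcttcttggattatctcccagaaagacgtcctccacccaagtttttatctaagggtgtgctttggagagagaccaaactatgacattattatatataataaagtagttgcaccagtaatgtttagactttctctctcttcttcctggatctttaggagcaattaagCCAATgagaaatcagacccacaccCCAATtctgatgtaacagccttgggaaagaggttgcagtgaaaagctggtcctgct
chr1:190478010-190478309, plus strand, 17 CpG
LINC01351 (BRINP3-DT): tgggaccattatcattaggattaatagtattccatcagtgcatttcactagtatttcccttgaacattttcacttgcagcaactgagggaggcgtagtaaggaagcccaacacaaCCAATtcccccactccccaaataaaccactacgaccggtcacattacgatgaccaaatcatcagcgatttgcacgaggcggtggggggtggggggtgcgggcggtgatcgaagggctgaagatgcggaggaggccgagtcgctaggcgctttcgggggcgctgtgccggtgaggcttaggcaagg
chr18:5237980-5238279, minus strand, 35 CpG
LINC00526: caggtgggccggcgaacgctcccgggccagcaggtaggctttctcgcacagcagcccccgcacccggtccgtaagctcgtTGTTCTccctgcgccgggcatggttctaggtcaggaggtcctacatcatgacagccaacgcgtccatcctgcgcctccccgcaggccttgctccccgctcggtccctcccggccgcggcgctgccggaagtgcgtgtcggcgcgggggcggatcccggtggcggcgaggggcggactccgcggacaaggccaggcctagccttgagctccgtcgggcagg

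The windows differed in kind. Those of LINC00930 and LINC01133 held a single CpG each, whereas those of LINC01351 and LINC00526, the pair shown with a divergent neighbor, held 17 and 35. In the pair shown the neighbor also had lower values in LNCaP-RRM2. LINC01521, another falling gene that starts beside an oppositely transcribed neighbor, was not shown. Its window held 22 CpG, and its neighbor PATZ1 was not called (log2 0.069). The median was 16.5 CpG over the 100 described LINC genes with a window and 14.0 over all 35116 RefSeq windows. CCAAT, searched on both strands, stood in 47.0% of the LINC windows and 34.6% of all windows, in 10 of 17 windows of LINC genes called higher and in 6 of 9 of those called lower. AGAACA stood in 18% of LINC windows and 14.8% of all, with 5 of 17 among the higher and 1 of 9 among the lower. TATAAA was found in 9.0% against 11.5%, CACGTG in 9.0% against 7.26%, ACGTG, which CACGTG contains, in 28% against 21.4%, and TGACGTCA in 2.0% against 1.85%. A match describes letters in a window and is not a binding site.

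LINC genes moved in both directions in LNCaP-RRM2. Of the 135, 21 (15.6%) were called higher and 9 (6.67%) lower by a Benjamini-Hochberg adjusted p under 0.05 over all 15162 tested genes together with a change of more than 1.5-fold (edgeR), and 105 were not called. Of all tested genes, 12.5% were called higher and 7.96% lower, 20.5% in total, and of genes with at least 1 CPM 12% and 8.49%, so the 22.2% of LINC genes called lay near the background. The median log2 fold change of LINC genes was 0.11, with quartiles of -0.26 and 0.48, and that of all genes with at least 1 CPM was -0.061. Without a fold limit, 46 of the 135 LINC genes passed the adjusted p, 27 higher and 19 lower. This was a smaller share than the 44.7% of all genes with at least 1 CPM. Higher genes made up 58.7% of the LINC genes that passed and 42.3% of all tested genes that passed.

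The call counts rested on both LNCaP-RRM2 libraries. Without LNCaP-RRM2 replicate 1 or replicate 2, 1 LINC gene stayed called higher (LINC00930) and 1 lower (LINC01133), while calls over all tested genes dropped from 1899 higher and 1207 lower to 362 and 234 without replicate 1 and to 539 and 419 without replicate 2. In those fits the spread came from the LNCaP-EV pair alone, and the remaining LNCaP-RRM2 library was assumed to vary like it. The split of directions also moved with the scaling: with upper-quartile factors 77.8% of LINC calls and 75% of all calls were higher, in place of 70.0% and 61.1%.

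**Figure D1:**
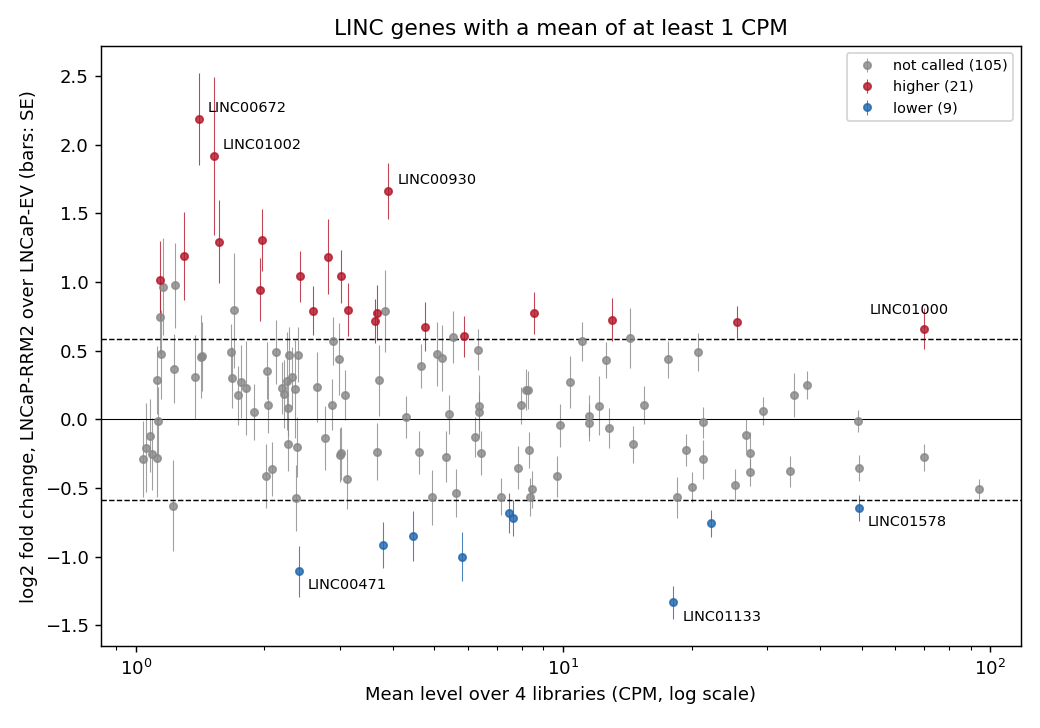
Log2 fold change (LNCaP-RRM2 over LNCaP-EV, bars: SE) of the 135 LINC genes against the mean level over 4 libraries in CPM on a log scale, with dashed lines at a fold of 1.5. The 21 genes called higher lie mostly at low levels (median 3.03 CPM), and the 9 called lower reach from 2.41 to 49.2 CPM.

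The direction of the calls differed along the range of levels. Between 1 and 2 CPM, 7 of 30 LINC genes were called higher and 0 lower (edgeR), with a median log2 fold change of 0.41. Of these 7, 5 (LINC00672, LINC01002, LINC00346, LINC01978 and LINC00886) had a LNCaP-EV mean below 1 CPM and so were included only through LNCaP-RRM2, where they were high, which makes the count at this level a description and no support for a direction. Of all 957 genes at that level, 19.5% were higher and 3.97% lower, with a median of 0.30. Between 2 and 5 CPM, 9 of 44 were higher and 3 lower (all genes 23.6% and 7.46%), and between 5 and 10 CPM 2 of 26 were higher and 3 lower, with a median of -0.086 (all genes 19.4% and 7.05%, median 0.11). At 10 CPM or more, 3 of 35 were higher and 3 lower, and the median was -0.024, against 8.84% and 9.23% of all genes and a median of -0.13. The medians of LINC genes and of all genes thus had opposite signs between 5 and 10 CPM and the same sign at the other levels; the difference was tested in no band.

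The LNCaP-RRM2 values lay above both LNCaP-EV values for 55 LINC genes (40.7%) and below both for 42 (31.1%), and the groups overlapped for 38. Over all genes with at least 1 CPM these shares were 32.8% and 43.8%. Summed over the 135 genes, the level was 1345.0 and 1358.4 CPM in LNCaP-EV and 1297.1 and 1302.5 CPM in LNCaP-RRM2, or 0.135% and 0.13% of all counts on average. The sum was thus slightly lower in LNCaP-RRM2 while the median log2 fold change was above 0. CPM values are not corrected for transcript length, so they order read counts, not molecules.

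LINC00672 had the largest rise. It lies at chr17:38925168-38929384 (plus strand), downstream of LASP1, an actin-binding adaptor protein, and it has been linked to p53-dependent repression of LASP1 in endometrial cancer cells. LINC00672 stood at 0.348 and 0.674 CPM in LNCaP-EV, from 11 and 18 counts, and at 2.29 and 2.31 CPM in LNCaP-RRM2, from 62 and 63. Both LNCaP-RRM2 libraries lay far above both LNCaP-EV libraries, which differed between themselves. With a LNCaP-EV mean of 0.511 CPM, LINC00672 was included only through LNCaP-RRM2. The separation is thus a description and no support for a rise. The gene was 4.55-fold higher (log2 2.19, SE 0.33, adjusted p = 0.00693 by edgeR's quasi-likelihood test with Benjamini-Hochberg adjustment), and the log2 fold change was 1.77 without LNCaP-EV replicate 1 and 2.80 without LNCaP-EV replicate 2. LASP1, 3398 bases away on the same strand, stood at 177.9 and 172.1 CPM in LNCaP-EV and 195.0 and 192.8 CPM in LNCaP-RRM2 and was not called (log2 0.15, SE 0.060, adjusted p = 0.0995, edgeR).

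LINC00930, at chr15:92567818-92572263 (minus strand), stood at 1.58 and 2.17 CPM in LNCaP-EV and at 5.93 and 5.91 CPM in LNCaP-RRM2. The groups were well apart, and the LNCaP-RRM2 libraries were nearly equal, with 161 counts each. It was 3.17-fold higher (log2 1.66, SE 0.20, adjusted p = 0.0044, edgeR), and its call held in all 17 alternative settings, with a largest adjusted p of 0.0484. Both flanking genes within 100 kb had higher values in LNCaP-RRM2: ST8SIA2, a polysialyltransferase 99090 bases away, stood at 0.158 and 0.112 CPM against 0.442 and 0.440 CPM and was called (log2 1.66, SE 0.48, adjusted p = 0.04, edgeR), and FAM174B, 45186 bases away, stood at 63.2 and 58.1 CPM against 90.4 and 87.9 CPM and passed the adjusted p but not the fold limit (log2 0.56, SE 0.079, adjusted p = 0.00592, edgeR). ST8SIA2 rested on few reads.

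LINC01002, at chr19:197016-202209 near the end of the short arm, was less certain. It stood at 1.04 and 0.187 CPM in LNCaP-EV and at 2.47 and 2.38 CPM in LNCaP-RRM2. Its LNCaP-EV libraries, with 33.4 and 5.29 estimated counts, were far apart, and its counts were fractional, as when reads are shared with similar sequence. The fitted change was 3.78-fold (log2 1.92, SE 0.58, adjusted p = 0.0452, edgeR), which became log2 3.67 without LNCaP-EV replicate 1 and 1.30 without LNCaP-EV replicate 2.

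LINC00663, LINC00886, LINC01978, LINC01087 and LINC01410 complete the 8 largest rises, and their functions are not described here. LINC00663 lies in a cluster of zinc-finger genes at chr19:19756372-19776413 and stood at 1.01 and 1.27 CPM in LNCaP-EV and at 2.62 and 3.01 CPM in LNCaP-RRM2 (log2 1.30, SE 0.23, adjusted p = 0.0097, edgeR). LINC00886 (chr3:156747343-156817062) stood at 0.981 and 0.823 CPM against 2.69 and 1.76 CPM (log2 1.29, SE 0.30, adjusted p = 0.0219, edgeR). In both genes the groups did not overlap, and the LNCaP-RRM2 libraries of LINC00886 were the more spread. LINC01978 (chr17:79919357-79924004) stood at 0.822 and 0.749 CPM against 1.40 and 2.20 CPM (log2 1.19, SE 0.32, adjusted p = 0.0318, edgeR), a call lost with DESeq2's Wald test. LINC01087 (chr2:131637025-131649615) stood at 2.15 and 1.27 CPM against 4.09 and 3.78 CPM (log2 1.18, SE 0.27, adjusted p = 0.021, edgeR). LINC01410 (chr9:62801465-62813486) stood at 2.18 and 1.76 CPM against 4.24 and 3.93 CPM (log2 1.04, SE 0.19, adjusted p = 0.0114, edgeR). For each of these, as for all 21 genes called higher, every LNCaP-RRM2 library exceeded every LNCaP-EV library, which adds no support to the calls.

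LINC00886 and LINC01978 share their position with other genes. LINC00886 contains the pseudogene PA2G4P4 on the same strand, which was far better covered and moved the other way, with 90.1 and 102.6 CPM in LNCaP-EV and 54.6 and 55.9 CPM in LNCaP-RRM2 (log2 -0.80, SE 0.090, adjusted p = 0.00372, edgeR). LINC01978 lies inside LINC01979 on the opposite strand, which stood at 1.77 and 2.17 CPM against 2.14 and 2.09 CPM and was not called (log2 0.11). The sources do not say whether reads were counted by strand, so those of such a pair cannot be told apart with certainty.

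**Figure D2:**
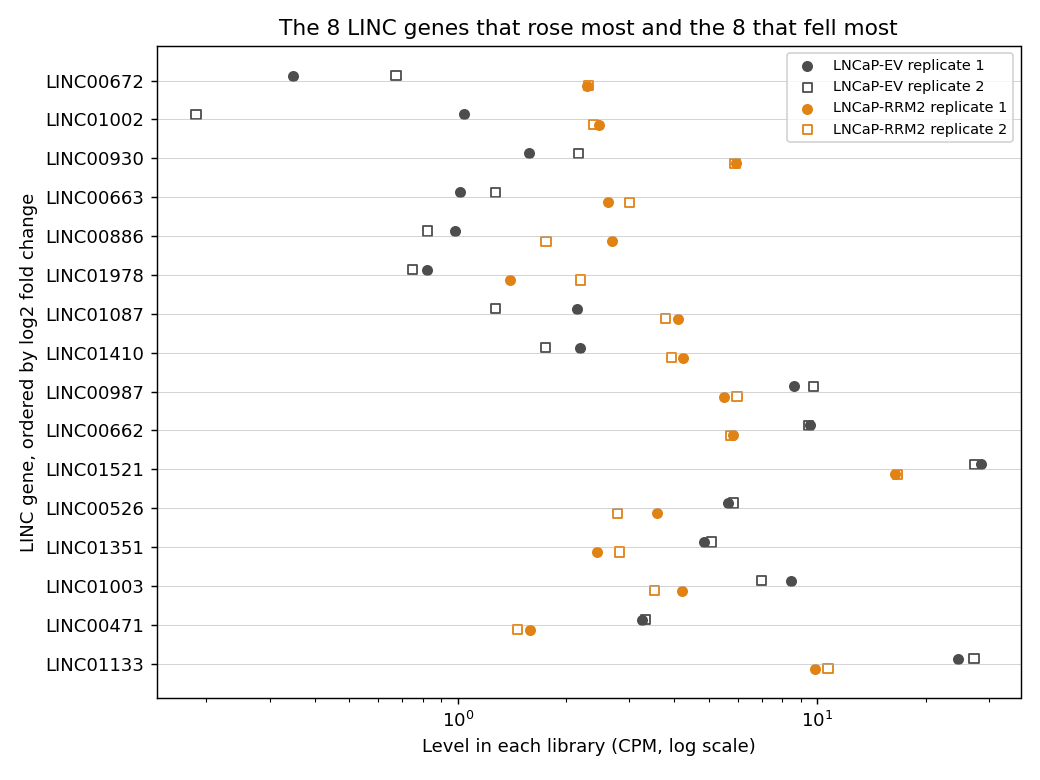
Level in each library, in CPM on a log scale, of the 8 LINC genes with the highest and the 8 with the lowest log2 fold change among those called, ordered by fold change. The orange LNCaP-RRM2 points lie right of both dark LNCaP-EV points for the upper 8 genes and left of both for the lower 8. The groups were apart in all 21 genes called higher and all 9 called lower, which adds no support to the calls. Over all tested genes they were apart in 34.5% (higher) and 40.9% (lower).

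The other 13 genes called higher changed by 1.52-fold to 2.06-fold, with adjusted p from 0.00853 to 0.0373 (edgeR). Several carry newer names. LINC00888, now SNHG33, a name given to host genes of small nucleolar RNAs, which guide the modification of ribosomal RNA, stood at 1.52 and 1.65 CPM in LNCaP-EV and 3.39 and 3.12 CPM in LNCaP-RRM2 (log2 1.04, SE 0.19). LINC00346, now PRECSIT, a p53-regulated RNA that activates STAT3 signaling in squamous carcinoma cells, stood at 0.759 and 0.749 CPM against 1.77 and 1.28 CPM (log2 1.01, SE 0.29). LINC00641 was among the better covered, with 17.8 and 21.0 CPM against 31.8 and 31.5 CPM (log2 0.71, SE 0.12). LINC00265, LINC00685, LINC00899, LINC00950, LINC01114, LINC01748 and LINC00174 rose as well, by log2 0.60 to 0.94, as did LINC01001 (log2 0.78) and the genes LINC01000 and LINC01759 given below. Without LNCaP-EV replicate 1, LINC00950 no longer passed the fold limit. With DESeq2's Wald test in place of edgeR, LINC00346, LINC00265, LINC00685, LINC00899, LINC00950, LINC01114 and LINC01748 were no longer called.

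LINC01759, now LNCTAM34A, is transcribed from the other strand at the start of MIR34AHG, the host gene of the p53-induced microRNA miR-34a, and has been described as raising its expression. LINC01759 stood at 2.06 and 2.55 CPM in LNCaP-EV and 3.80 and 4.18 CPM in LNCaP-RRM2, 1.74-fold higher (log2 0.80, SE 0.19, adjusted p = 0.0237, edgeR), though not called by DESeq2's Wald test. MIR34AHG stood at 28.6 and 28.6 CPM against 59.6 and 55.4 CPM (log2 1.01, SE 0.086, adjusted p = 0.00266, edgeR). Both genes were thus higher, with no overlap between groups, but they overlap in position and the LINC01759 counts were fractional.

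LINC01133 had the largest fall. It lies at chr1:159961224-159979086 (plus strand), and its RNA has been described as binding the splicing factor SRSF6 and restraining the epithelial-mesenchymal transition in colorectal cancer cells. LINC01133 stood at 24.6 and 27.3 CPM in LNCaP-EV and 9.88 and 10.7 CPM in LNCaP-RRM2, from 268 to 779 counts, all whole. Both LNCaP-RRM2 libraries lay far below both LNCaP-EV libraries. The gene was 2.52-fold lower (log2 -1.33, SE 0.12, adjusted p = 0.00285, edgeR), and its call held in all 17 alternative settings, with a largest adjusted p of 0.0445. Its nearest coding gene, SLAMF9, 6970 bases away, stood at 0.516 CPM or less in every library and was not tested.

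LINC00471 (chr2:231508426-231514339) stood at 3.26 and 3.33 CPM in LNCaP-EV and 1.58 and 1.47 CPM in LNCaP-RRM2 (log2 -1.11, SE 0.19, adjusted p = 0.00878, edgeR). LINC01003 (chr7:152464124-152465546) stood at 8.45 and 7.0 CPM against 4.20 and 3.52 CPM (log2 -1.0, SE 0.18, adjusted p = 0.0106, edgeR). Replicates of LINC00471 lay close together and those of LINC01003 were wider apart, with no overlap between groups in either. LINC01521 (chr22:31346759-31351155) stood at 28.6 and 27.4 CPM against 16.4 and 16.7 CPM (log2 -0.76, SE 0.099, adjusted p = 0.005, edgeR). It starts 496 bases from the oppositely transcribed PATZ1, a zinc-finger transcription factor, which was not called (48.6 and 40.5 CPM against 48.0 and 45.4 CPM). LINC00987 (chr12:9240003-9262877) stood at 8.64 and 9.77 CPM against 5.49 and 5.98 CPM (log2 -0.68, SE 0.15, adjusted p = 0.0174, edgeR), and without LNCaP-EV replicate 2 it no longer passed the fold limit.

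LINC01351, now BRINP3-DT (chr1:190478260-190481394), starts 378 bases from BRINP3, a gene expressed in the nervous system that has been described as restraining proliferation, and is transcribed away from it. LINC01351 stood at 4.84 and 5.09 CPM in LNCaP-EV and 2.43 and 2.82 CPM in LNCaP-RRM2 (log2 -0.92, SE 0.17, adjusted p = 0.0114, edgeR). BRINP3 stood at 1.30 and 1.09 CPM against 0.590 and 0.440 CPM (log2 -1.21, SE 0.31, adjusted p = 0.0284, edgeR). Both fell, with no overlap between groups. This was the one of 13 divergent LINC and coding gene pairs, with starts within 1 kb of each other, in which both genes were called.

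LINC00526 (chr18:5236724-5238029) starts 71 bases from the start of LINC00667, which runs in the other direction, so the window shown above spans both starts. LINC00526 stood at 5.63 and 5.84 CPM in LNCaP-EV and 3.57 and 2.79 CPM in LNCaP-RRM2 (log2 -0.85, SE 0.18, adjusted p = 0.017, edgeR). LINC00667 stood at 37.5 and 39.4 CPM against 31.8 and 27.2 CPM and passed the adjusted p without the fold limit (log2 -0.38, SE 0.11, adjusted p = 0.0405, edgeR). In each the LNCaP-RRM2 values were the lower. Of 8 LINC pairs within 100 kb of each other, 3 had 1 member called and 0 had both.

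LINC01578, now CHASERR, is transcribed upstream of CHD2, a chromatin remodeler, and represses CHD2 in cis in mouse and human cells. LINC01578 (chr15:92882843-92898747) stood at 58.1 and 61.9 CPM in LNCaP-EV and 36.0 and 40.8 CPM in LNCaP-RRM2. The groups were well apart, and the fall was 1.56-fold, just past the limit (log2 -0.65, SE 0.097, adjusted p = 0.00676, edgeR). The call was kept in 8 of 17 alternative settings, with log2 fold changes from -0.74 to -0.45, and without LNCaP-EV replicate 2 the fold limit was not passed. CHD2, 1574 bases downstream, stood at 141.4 and 147.1 CPM against 150.8 and 156.0 CPM, a small difference that was not called (log2 0.089, SE 0.064, adjusted p = 0.299, edgeR).

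Of the 6 LINC genes with the highest mean CPM, which held 29.8% and 30.2% of the LINC level in the LNCaP-EV libraries and 27.3% and 27.7% in those of LNCaP-RRM2, 1 was called lower (LINC01578) and 1 higher. The higher one was LINC01000 (chr7:128641241-128660998), with 62.1 and 46.1 CPM in LNCaP-EV and 88.0 and 83.3 CPM in LNCaP-RRM2 (log2 0.66, SE 0.15, adjusted p = 0.0194, edgeR). Its counts were fractional, its LNCaP-EV libraries differed from each other, and without LNCaP-EV replicate 2 the fold limit was not passed. LINC00674, the gene with the most reads, stood at 108.3 and 112.5 CPM against 75.3 and 80.1 CPM, below the fold limit though past the adjusted p (log2 -0.51, SE 0.072, adjusted p = 0.00607, edgeR). LINC02197 (52.2 and 58.7 CPM against 42.2 and 44.5 CPM, log2 -0.35) passed the adjusted p without the fold limit, and LINC01278 (70.4 and 82.9 CPM against 63.2 and 63.2 CPM, log2 -0.28) did not pass. LINC01128 was at 50.2 and 48.1 CPM against 48.9 and 48.6 CPM, with overlapping groups and a log2 fold change of -0.012 that turned positive in 10 alternative settings.

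Of 8 LINC genes linked to prostate cells or androgen in other work, 3 were described here, 3 were below 1 CPM (LINC00844, LINC00304 and LINC00261) and 2 were not analyzed here. LINC00662, described in several tumor types, was called lower, with 9.55 and 9.47 CPM in LNCaP-EV and 5.82 and 5.72 CPM in LNCaP-RRM2 (log2 -0.72, SE 0.13, adjusted p = 0.011, edgeR). LOC101927151, which overlaps it, stood at 12.4 and 11.8 CPM against 7.63 and 8.80 CPM (log2 -0.56, SE 0.14, adjusted p = 0.0265, edgeR). Both sets of LNCaP-RRM2 values were below both sets of LNCaP-EV values, and the counts of LINC00662 were fractional. LINC00963, linked to the transition to castration-resistant growth, was at 30.1 and 25.5 CPM against 25.5 and 25.9 CPM, with overlapping groups (log2 -0.11, SE 0.12, adjusted p = 0.463, edgeR), and its sign turned without LNCaP-EV replicate 1. LINC01138, which binds the methyltransferase PRMT5 in liver cancer cells, was at 10 and 11.5 CPM against 14.2 and 14.7 CPM, past the adjusted p but not the fold limit (log2 0.43, SE 0.13, adjusted p = 0.0471, edgeR).

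Of 14 LINC genes described in other tumors or cell types, 5 were at 1 CPM or more, 1 was below (LINC00511) and 8 were not analyzed here. Of the 5, LINC00672 was higher and LINC01133 lower, as given above. LINC00467, a gene repressed by N-MYC in neuroblastoma cells, was at 22.9 and 24.0 CPM in LNCaP-EV and 16.1 and 17.3 CPM in LNCaP-RRM2 (log2 -0.49, SE 0.11, adjusted p = 0.0178, edgeR). LINC00339, which lies beside CDC42, a small GTPase of the cytoskeleton, was at 9.62 and 10.3 CPM against 7.30 and 6.64 CPM (log2 -0.51, SE 0.14, adjusted p = 0.0324, edgeR). Both were below their LNCaP-EV values in each LNCaP-RRM2 library and past the adjusted p, but under the fold limit. LINC00665, which encodes a micropeptide described in breast cancer cells, had overlapping groups, with 36.9 and 28.5 CPM against 40.3 and 33.6 CPM (log2 0.18, SE 0.16, adjusted p = 0.411, edgeR).

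Most neighbors of the called LINC genes were not called. Of 21 LINC genes called higher, 17 had a protein-coding gene within 100 kb, and the nearest one was called higher for 4, lower for 0, not called for 12 and not tested for 1. The background over all tested genes was 12.5% higher and 7.96% lower (edgeR calls). The 4 were WNT7B, a secreted Wnt ligand 62779 bases from LINC00899 (log2 0.88, SE 0.18), FAM71F2 11268 bases from LINC01000 (log2 1.26, SE 0.19), PLPP2, a lipid phosphate phosphatase 78831 bases from LINC01002 (log2 1.30, SE 0.19), and H6PD, an enzyme of the endoplasmic reticulum that makes NADPH, 42719 bases from LINC01759 (log2 0.62, SE 0.10). Of 9 LINC genes called lower, 7 had such a neighbor, and the nearest was called lower for 1 (BRINP3), higher for 0, not called for 5 and not tested for 1.

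Some neighbors had values in the opposite direction. HNRNPC, an RNA-binding protein gene 2236 bases from LINC00641 on the same strand, stood at 570.1 and 615.3 CPM in LNCaP-EV and 391.8 and 417.9 CPM in LNCaP-RRM2 (log2 -0.55, SE 0.073, adjusted p = 0.00521, edgeR), whereas LINC00641 rose. TIPARP, a mono-ADP-ribosyltransferase gene 40575 bases from LINC00886, was called lower, with 13.0 and 16.0 CPM against 9.18 and 8.44 CPM (log2 -0.72, SE 0.15, adjusted p = 0.0168, edgeR). NCL, the gene of nucleolin, 43932 bases from LINC00471, stood at 1394.2 and 1456.4 CPM against 1002.1 and 1064.9 CPM (log2 -0.46), in the direction of LINC00471 but under the fold limit.

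**Figure D3:**
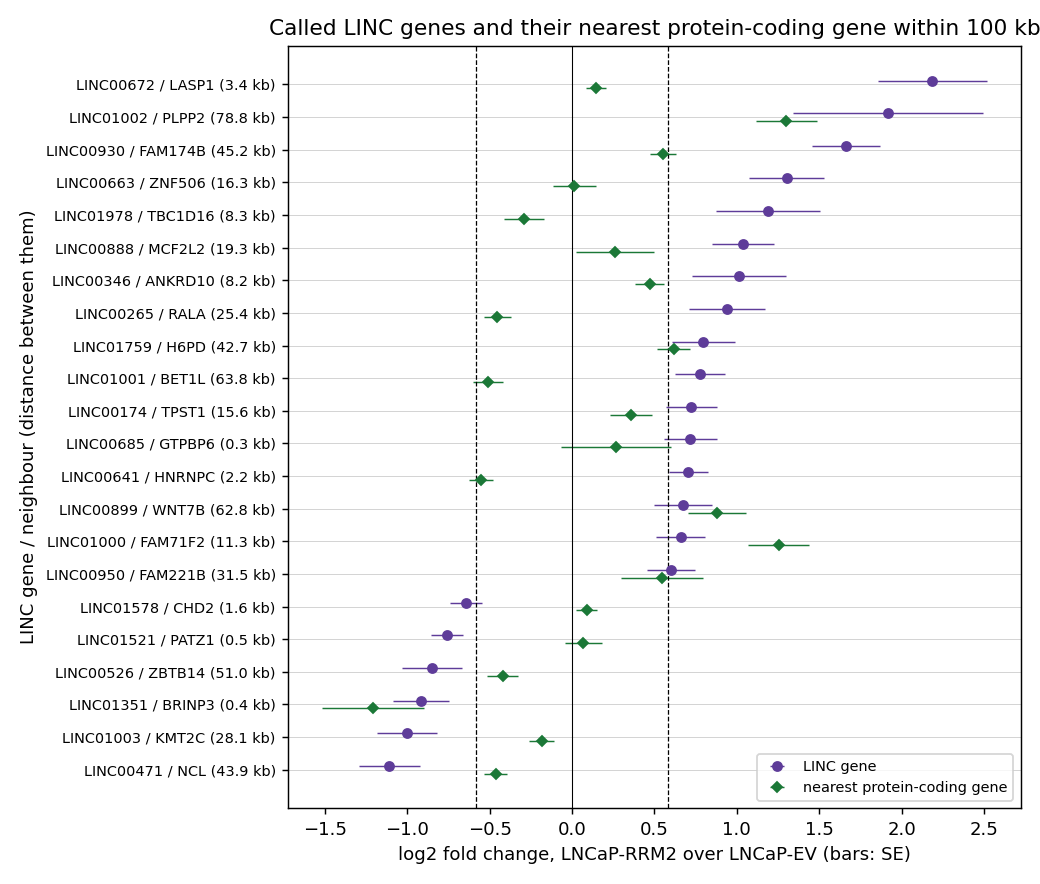
Log2 fold change (LNCaP-RRM2 over LNCaP-EV, bars: SE) of called LINC genes (circles) and of their nearest protein-coding gene within 100 kb, where that gene was tested (diamonds), with the distance between them and dashed lines at a fold of 1.5. Of the 22 neighbors, 5 lie past the dashed lines on the side of their LINC gene (WNT7B, FAM71F2, PLPP2, H6PD and BRINP3).

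Among the 13 divergent pairs, 3 coding genes were called beside a LINC gene that was not. ZC3H12A, a ribonuclease that degrades inflammatory mRNAs, stood at 31.6 and 19.2 CPM in LNCaP-EV and 71.5 and 53.4 CPM in LNCaP-RRM2 (log2 1.29, SE 0.26, adjusted p = 0.0146, edgeR), while LINC01137 on its other side stood at 15.7 and 14.1 CPM against 21.9 and 18.6 CPM (log2 0.44, adjusted p = 0.0484, under the fold limit). VWA1, an extracellular matrix protein, was called higher (log2 1.38, SE 0.39) beside LINC01770 (log2 0.79, not called), and TAF12, a subunit of the transcription factor TFIID, was called lower (log2 -0.62, SE 0.13) beside LINC01715 (log2 -0.18, not called). Over the 13 pairs, the log2 fold changes of the LINC and the coding gene had the same sign in 7 and opposite signs in 6. The latter include LINC01184 (log2 -0.48, adjusted p = 0.0241) with SLC12A2, a chloride cotransporter (log2 0.40, adjusted p = 0.0147), both past the adjusted p and under the fold limit (edgeR). Of the other 10 pairs, 7 had neither gene called, 2 had the LINC gene alone called and 1, BRINP3 with LINC01351, had both.

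The calls were also read by how cleanly a gene could be counted. Of the 111 LINC genes that overlap no other gene of the table, 18 were called higher and 8 lower, and of the 22 that overlap one 3 were higher and 1 lower; 2 genes whose rows join distant copies were set apart. Of the 92 whose counts were whole in every library, 15 were higher and 6 lower. Of all genes at 1 CPM or more, 12% were called higher and 8.49% lower, and no difference from these shares was tested. The 306 genes with antisense names (-AS and a digit) at 1 CPM or more, another noncoding group of like median level, had 19 called higher (6.21%) and 22 lower (7.19%), with a median log2 fold change of -0.084. The difference between the groups was not tested.

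GC content moved with the calls over all genes, where those called higher had a median transcript GC content of 55.0% and those called lower 43.9% (genes at 1 CPM or more). Among the 127 LINC genes with a GC value, the medians were 47.6% for those called higher and 43.9% for those called lower. Split into low, middle and high GC content, 6 of 43 LINC genes were higher and 5 lower in the low group (34.7% to 44.7%). In the middle group 7 of 41 were higher and 1 lower, and in the high group (52.6% to 69.9%) 7 of 43 and 3. Of all genes at 1 CPM or more, at any GC content, 12% were called higher and 8.49% lower. Their shares within each GC range are not given, so these counts describe the LINC genes alone. Replicates also differed along GC content, in the same direction in both groups. The log2 ratio of replicate 2 to replicate 1 had a median of 0.11 in the low, 0.031 in the middle and -0.11 in the high group in LNCaP-EV, and of 0.075, -0.00017 and -0.11 in LNCaP-RRM2. With each library's GC trend removed, 25 LINC genes were called higher and 11 lower, and of all tested genes 1678 and 1557. LINC00174, LINC01001, LINC00950 and LINC01578 were no longer called. The median log2 fold change of LINC genes was 0.035 in place of 0.11, and that of all tested genes -0.11 in place of -0.026. Higher calls made up 69.4% of LINC calls and 51.9% of all calls, in place of 70.0% and 61.1%.

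**Figure D4:**
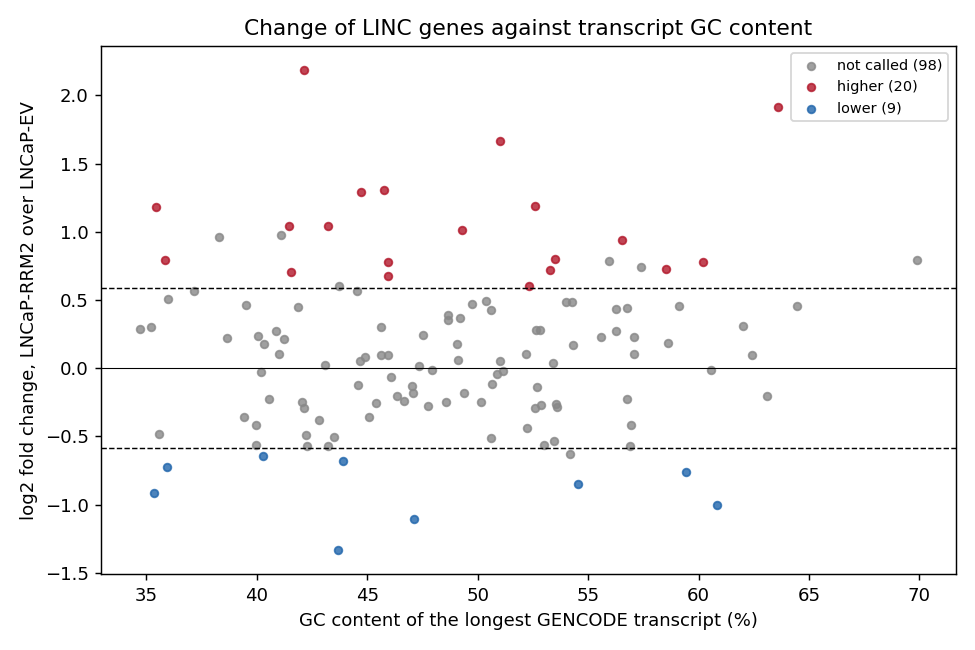
Log2 fold change (LNCaP-RRM2 over LNCaP-EV) of the 127 LINC genes with a GC value against the GC content of their longest GENCODE transcript in percent, with dashed lines at a fold of 1.5. Genes called higher (red) and lower (blue) are spread over the whole range from 34.7% to 69.9%.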

How the data were processed

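RNA was measured in 4 libraries, grouped and numbered from the sample titles. Per the labels and the study's methods, total RNA was purified with a column kit, sequenced as paired reads and analyzed with the Partek Flow software (version not stated); the sources used here give no aligner, build, annotation or strand setting. The deposited values were estimated counts per gene, which the authors made in that software without scaling between libraries, and 56.1% to 58.0% per library were whole. They were rounded for testing. No gene of the table totaled under 10 counts over the 4 libraries. Shared reads make near-identical or overlapping genes uncertain. LINC genes matched RefSeq by symbol (290) or synonym (38); table starts equaled the RefSeq starts on GRCh38.p14 for 292 of 328, so positions are given on GRCh38, with 1 subtracted from ends. The 205 rows of the table that join distant copies of a gene (far longer than the RefSeq gene, or over 400000 bases without a RefSeq match) were not used as overlap partners.

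Genes were filtered with filterByExpr, leaving 15162, scaled with TMM factors (also used for CPM) and compared by the quasi-likelihood F-test of edgeR 4.0.16 under R 4.3.3, without covariates. A gene was called with the study's thresholds, an adjusted p (Benjamini-Hochberg) under 0.05 and more than 1.5-fold change. SE values are on the log2 scale. Scripts were tested on simulated data. Genes named were the 8 called LINC genes with the highest and the 8 with the lowest log2 fold change, the 6 with the highest mean CPM, lists of 8 prostate-linked and 14 otherwise described LINC genes, and coding neighbors within 100 kb; others were chosen after their values were seen. Members and lists were chosen with earlier results of these data known. Alternatives covered scaling, filters, tests (DESeq2 1.42.0, limma 3.58.1), thinning, a replicate block, GC correction and left-out libraries. Removal of the GC trend centered on the mean, and the restriction to whole counts, were added after seeing the data. The precision of low genes is limited by depth: 3 counts were 0.0949 to 0.112 CPM. In bulk RNA, fewer expressing cells and less RNA per cell cannot be told apart.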

Additional observations from a re-analysis of the deposited data

How the results depend on the processing

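Main values were 21 LINC genes higher, 9 lower and a median log2 fold change of 0.11. Higher calls numbered 14 with DESeq2's Wald test, and 5 of the 61 genes with at least 5 CPM, where the construction leaves fewer genes. Lower calls numbered 19 without a fold limit. Over all tested genes, 1899 were higher and 1207 lower in the main fit. With the Wald test 1787 of all tested genes were higher, and without a fold limit 3695 were lower. Leaving out 1 library gave 1 to 27 higher, 1 to 13 lower and medians from 0.060 to 0.18. The median was 0.15 with DESeq2 size factors and also with its Wald test, 0.17 with total counts and 0.18 with upper-quartile factors. Without RRM2 and ribosomal RNA counts it was 0.18, at 1 CPM in at least 2 libraries 0.13 and after thinning 0.14. With the GC trend centered on the mean it was 0.14, with the GC trend removed 0.035 and with a block as well 0.033. It was -0.043 at 5 CPM, 0.16 at 0.5 CPM, 0.17 without overlapping genes and 0.18 for whole counts. The median over all tested genes moved too, from -0.026 to 0.017 with DESeq2 size factors and its Wald test and 0.039 with total counts. It was 0.053 with upper-quartile factors, 0.046 without RRM2 and ribosomal RNA counts, and -0.032 at 1 CPM in at least 2 libraries. After thinning it was -0.026, with the centered GC trend -0.011, and with the GC trend removed -0.11, with or without a block. The cause was not tested. The same replicate numbers do not establish pairing (correlation of deviations 0.45 over 2 pairs). With the replicate block, 26 LINC genes were higher and 9 lower, with a median of 0.11. The calls over all tested genes rose too, to 2346 higher and 1255 lower. LINC00963 turned to 0.018 without LNCaP-EV replicate 1 and ranged from -0.14 over left-out libraries. LINC01128 turned to 0.031 with DESeq2 size factors and its Wald test, 0.053 with total counts, 0.068 with upper-quartile factors, 0.011 at 1 CPM in at least 2 libraries, 0.0051 after thinning, 0.025 and 0.046 without LNCaP-EV replicate 1 and 2 (lowest -0.017, without LNCaP-RRM2 replicate 1), 0.062 without RRM2 and ribosomal RNA counts, and 0.097 with the centered GC trend. Of 39 LINC genes followed, 30 were called in the main fit. Of these 30 calls, 9 were lost with DESeq2's Wald test and 4 with the GC trend removed. The dependence of the calls on both LNCaP-RRM2 libraries is given above.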

Other observations

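The 193 LINC genes with a mean below 1 CPM (median 0.225 CPM) were outside the description above; 124 were too low to be tested. Of the other 69, 10 were called higher and 4 lower (edgeR), against 20.5% of all tested genes called in either direction; those named here were chosen after their values were seen. LINC00622 had 3 and 1 counts in the LNCaP-EV libraries and 17 in each LNCaP-RRM2 library (log2 3.11, SE 0.54). LINC01105, now SILC1, a gene named for its activation of SOX11 in regenerating neurons of mice, had 5 and 1 counts against 22 and 12 (log2 2.56, SE 0.68). The LNCaP-RRM2 counts of both genes exceeded the LNCaP-EV counts, all of which were small. Both genes passed the low-count filter only through LNCaP-RRM2, where they were high, so this is a description and no support for a rise.

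Among the falling genes, LINC00836 had 15 and 12 counts in the LNCaP-EV libraries and 1 in each LNCaP-RRM2 library (log2 -3.50, SE 0.61), LINC01029 had 13 and 12 against 3 and 0 (log2 -2.86, SE 0.85), and LINC01579 had 25 and 23 against 1 and 7 (log2 -2.45, SE 0.63). The better covered LINC01465 had 32 and 27 counts against 12 and 8 (log2 -1.45, SE 0.34, adjusted p = 0.0221, edgeR with Benjamini-Hochberg adjustment). With counts this low the fitted sizes depend on single reads. The groups did not overlap in any of these 4 genes, nor in 34.5% (higher) and 40.9% (lower) of all tested genes. LINC00836, LINC01029 and LINC01579 passed the low-count filter only through LNCaP-EV, where they were high. The lack of overlap is thus a description and no support for a fall.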
